A study of Mus musculus with 6 samples.

Results

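The 10 genes of clathrin-mediated synaptic vesicle endocytosis followed here were chosen by gene name in the transcript table: Dnajc6, Synj1, Cltc, Clta, Cltb, Ap2a1, Snap91, Picalm, Dnm1 and Amph. They are 10 of the 47729 genes listed, and their 92 transcripts are part of 115220. Ribosome-bound RNA was collected from D2 neurons, the cells that express the dopamine receptor Drd2, of the medial prefrontal cortex (mPFC) of adult male C57BL/6 mice, in 3 Ctrl and 3 Gsk3sKO libraries. All mice carried a D2Cre BAC transgene, a Cre-dependent Rosa26 Flag-Cas9 allele and RiboTag, which puts an HA tag on the ribosomal protein Rpl22 in Cre-expressing cells. Both groups therefore expressed Cas9 in D2 neurons. Gsk3sKO mice received an AAV carrying a guide RNA against Gsk3b together with GFP. Ctrl mice received an AAV carrying GFP alone, so loss of Gsk3b and Cas9 cutting as such cannot be told apart here. The mice were 2.5 to 3 months old and tissue was taken 3 weeks after injection. Whether each library is 1 mouse or a pool of mice is not stated in the sources used here, so the p-values below measure the spread between these libraries.

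In nerve terminals, clathrin triskelia of heavy chain (Cltc) and light chains (Clta, Cltb) assemble on the plasma membrane through adaptors. Ap2a1 is the alpha 1 subunit of the AP-2 adaptor complex, and Snap91 (AP180) and Picalm (CALM) bind both lipid and clathrin. Amphiphysin (Amph) senses membrane curvature and brings dynamin 1 (Dnm1), a GTPase, to the neck of the pit, where it cuts the vesicle free. The coat is then removed: synaptojanin 1 (Synj1) dephosphorylates the lipid that holds the adaptors, and auxilin (Dnajc6), a J-domain protein, brings the chaperone Hsc70 (Hspa8) to the clathrin cage. GSK3 is known to phosphorylate dynamin 1 at a site primed by Cdk5, and calcineurin removes these phosphates.

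Dnajc6 spans chr4:101496648-101642799 on the plus strand (GRCm38), and its annotated transcripts begin at 3 places. Start 1 holds Dnajc6-204 and Dnajc6-208, with first exons within chr4:101496648-101496763. Start 2 holds Dnajc6-201, Dnajc6-203, Dnajc6-206 and Dnajc6-207, within chr4:101507871-101508182. Start 3 holds Dnajc6-202 and Dnajc6-205, within chr4:101550480-101550855. The 5 full-length transcripts, Dnajc6-201 to Dnajc6-205, share 4929 bases, which is 92.6% to 96.1% of each, so that little more than their first exons and a few bases at the far end tells them apart. They share 2700 coding bases as well. By annotation, Dnajc6-205 codes for 968 amino acids and has 187 bases that are coding in none of the other 4. Dnajc6-201 is annotated to code for 938 and has 97 such bases. Dnajc6-202, Dnajc6-203 and Dnajc6-204 are annotated to begin translation at 1 shared downstream position and to code for 900. The 187 bases also lie in the first exon of Dnajc6-202, and the 97 in that of Dnajc6-203, where they are annotated as untranslated. The first 30 coding bases of the forms are shown because they mark the annotated alternative beginnings of auxilin, with the start codon in capitals. They lie at chr4:101550669-101550698 for Dnajc6-205, at chr4:101508086-101508115 for Dnajc6-201 and at chr4:101597818-101597847 for the 900-residue forms.
Dnajc6-205: ATGagcctcctcgggagctaccggaaaaag
Dnajc6-201: ATGacaaatccaaagtcaggggttgcagag
Dnajc6-203 and Dnajc6-204: ATGgagcccagctatgggggaggccttttt

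Genomic sequence just before starts 2 and 3 is shown because these are the beginnings between which most Dnajc6 signal was divided. It comes from RefSeq promoter windows (GRCm38.p6, plus strand) and stops before the first annotated exon of each start. CG dinucleotides are in capitals. No RefSeq window was held for start 1. The stretch before start 2, chr4:101507726-101507870, has 4 CG in 145 bases, and the stretch before start 3, chr4:101550344-101550479, has 9 CG in 136 bases.
Before start 2: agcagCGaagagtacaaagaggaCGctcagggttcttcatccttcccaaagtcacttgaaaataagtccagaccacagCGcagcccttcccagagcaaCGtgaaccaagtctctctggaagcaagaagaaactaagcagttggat
Before start 3: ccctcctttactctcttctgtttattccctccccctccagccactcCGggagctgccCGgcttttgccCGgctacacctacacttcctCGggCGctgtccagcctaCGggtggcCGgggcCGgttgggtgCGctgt
Over the full 250 bases before the RefSeq start, G and C made up 50.8% with 8 CG for start 2, and 60.4% with 15 CG for start 3, against a median of 6 CG over all 32851 promoter windows. 3 motifs were searched on both strands of these 250 bases. TATAAA, the core of the TATA box, was found in neither and in 12.4% of all windows. CTTTGAT, a core bound by TCF/LEF factors, was found in neither and in 3.21% of all windows. TGACG, part of the cyclic AMP response element, was found once before start 3 and in 17.8% of all windows.

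The Dnajc6 gene total, the sum of FPKM (fragments per kilobase of transcript, scaled to the size of the library) over its transcripts, was similar in the 2 groups. It was 79.98, 83.3 and 96.8 FPKM in Ctrl and 94.4, 102 and 83.6 FPKM in Gsk3sKO, and the groups overlapped. Differences were fitted with limma, a linear model that shares the estimate of spread over all features, on log2(FPKM + 1), and a difference is said to be called at an unadjusted p under 0.05. The log2 fold change was 0.11 with a 95% interval of -0.21 to 0.43 (limma, unadjusted p = 0.463, adjusted p = 0.914). Its division among the starts differed. Transcripts of start 3 summed to 58.9, 61.2 and 64.4 FPKM in Ctrl and to 0.011, 32.6 and 7.16 FPKM in Gsk3sKO, so no Gsk3sKO library reached the Ctrl range. Transcripts of start 2 summed to 16.3, 18.8 and 23.4 FPKM in Ctrl and to 63.5, 53.8 and 53.5 FPKM in Gsk3sKO, all higher. Transcripts of start 1 summed to 4.73, 3.27 and 8.97 FPKM in Ctrl and to 31.0, 15.9 and 23.0 FPKM in Gsk3sKO, again without overlap. In shares of the gene total, start 3 held 73.6%, 73.5% and 66.5% in Ctrl and 0.0117%, 31.9% and 8.56% in Gsk3sKO. Start 2 held 20.4% to 24.2% in Ctrl and 52.5% to 67.2% in Gsk3sKO.

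**Figure D1:**
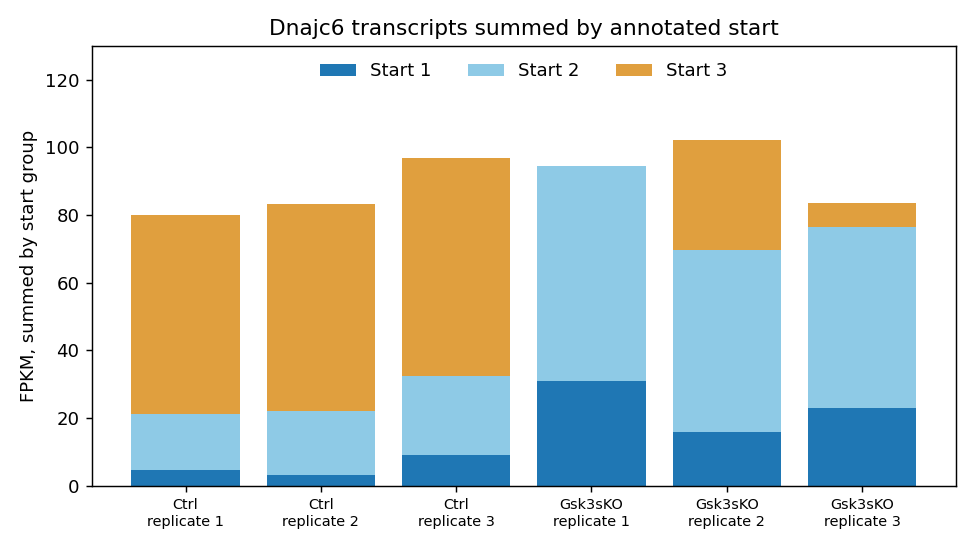
Stacked bars give the FPKM of Dnajc6 transcripts (y axis) in each of the 6 libraries (x axis), summed by annotated start. Start 3 is the largest part of every Ctrl bar and start 2 the largest part of every Gsk3sKO bar, while the bar heights of the groups overlap, from 79.98 to 102 FPKM.

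Grouping transcripts by start was decided after the transcript values had been seen, and the fit was made over all 16338 start groups with a mean of at least 1 FPKM. At an unadjusted p under 0.05, 6.03% of them were called, and 3 of the 27 tested start groups of the 10 genes were, all 3 of Dnajc6. Start 2 rose by 1.51 on the log2 scale (SE 0.17, unadjusted p = 6.47e-05, adjusted p = 0.0705 in limma). Its mean went from 19.5 ± 3.60 to 56.9 ± 5.69 FPKM (SD, 3 libraries each), which is 2.92 times the Ctrl mean. Most of the Ctrl sum of start 2 was not full-length. It was Dnajc6-207, a partial form annotated with 194 codons and with no bases of its own. Dnajc6-207 was at 15.3, 15.9 and 19.0 FPKM in Ctrl and 10.8, 26.6 and 16.2 FPKM in Gsk3sKO. Its log2 fold change was 0.01 (limma, unadjusted p = 0.976). Start 1 rose by 1.91 (SE 0.38, unadjusted p = 0.00165, adjusted p = 0.453), from 5.66 ± 2.96 to 23.3 ± 7.52 FPKM. Start 3 fell by 3.26 on the log2 scale (SE 1.15, unadjusted p = 0.0263, adjusted p = 0.804). None of the 3 passed adjustment. The exact two-sided permutation test gave p = 0.1 for each, the smallest value that 3 against 3 libraries allow. The calls of starts 1 and 2 held in all 12 alternative settings. That of start 3 did not hold without any 1 Ctrl library (unadjusted p from 0.0632 to 0.0682), without Gsk3sKO replicate 3 (unadjusted p = 0.0582), with a pseudocount of 0.1 (unadjusted p = 0.0581) or in an ordinary linear model (unadjusted p = 0.0907). Its size depended on single libraries: without Gsk3sKO replicate 1 it fell by 1.92, and without Gsk3sKO replicate 2 by 4.44. Of all 2543 genes with at least 2 tested start groups, 64 (2.52%) had a start group called in each direction, and Dnajc6 was the 1 such gene among the 8 members that could be counted.

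By transcript, Dnajc6-205 (ENSMUST00000106933), the form with 968 codons, was the most abundant of the gene by its mean over the 6 libraries and in each Ctrl library, but in no Gsk3sKO library. It was at 58.8, 61.1 and 63.4 FPKM in Ctrl, and in Gsk3sKO it was listed at 0 in replicate 1 and stood at 25.5 and 4.96 FPKM in replicates 2 and 3. It fell by 3.52 on the log2 scale (SE 1.10, unadjusted p = 0.0172, adjusted p = 0.817 in limma), a call that was lost without any 1 Ctrl library (unadjusted p from 0.0514 to 0.0522) and in the linear model without moderation (unadjusted p = 0.0615). Without Gsk3sKO replicate 1 it fell by 2.30. Dnajc6-204 (ENSMUST00000106930), the full-length form from start 1, was at 2.66, 1.06 and 6.96 FPKM in Ctrl, against 27.7, 15.6 and 21.05 FPKM in Gsk3sKO, and rose by 2.48 (SE 0.52, unadjusted p = 0.00269, adjusted p = 0.552). That call held in all 12 alternative settings. Dnajc6-203 (ENSMUST00000106929) was at 0, 0.00136 and 0.169 FPKM in Ctrl and 51.8, 0.198 and 36.7 FPKM in Gsk3sKO. It reached the minimum mean of 1 FPKM only through Gsk3sKO libraries. It was also called higher, by 3.66 (SE 1.42, unadjusted p = 0.0398, adjusted p = 0.842), but 1 Gsk3sKO library had a level near that of Ctrl. The call was lost in 7 of 12 alternatives, with unadjusted p up to 0.135 without Gsk3sKO replicate 3. In that library, Gsk3sKO replicate 2, another transcript of start 2 was high instead: Dnajc6-201 stood at 26.8 FPKM, against 0.488 to 3.87 FPKM in the other 5 libraries. The start 2 sum therefore varied less among Gsk3sKO libraries than its transcripts did.

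Full-length transcripts were also sorted by their annotated coding length. This regroups the same transcript values as above, so its differences are not separate results. The 968-residue form made up 94.7%, 96.1% and 83.97% of full-length Dnajc6 signal in Ctrl and 0%, 33.9% and 7.59% in Gsk3sKO. The transcripts annotated with 900 residues were together at 2.73, 1.22 and 8.22 FPKM in Ctrl, against 79.5, 22.9 and 60.0 FPKM in Gsk3sKO. Their share was 1.92% to 10.9% in Ctrl and 30.5% to 99.0% in Gsk3sKO, without overlap (exact permutation p = 0.1 on the FPKM). The form annotated with 938 residues overlapped between groups. In Gsk3sKO replicates 1 and 3, most of the 900-residue sum was Dnajc6-203, at 51.8 and 36.7 FPKM. Its first exon also holds the coding start annotated for Dnajc6-201, so these values do not show which start codon was used. These are RNA values that rest on the assignment of reads to near-identical transcripts by the authors' software, and no protein was measured in the files.

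The RNA of the targeted gene was also read in every library, which is not a measure of its protein. In mice, the study judged the knockout by staining for the protein, in animals without RiboTag. It also tested the guide RNA in Neuro2A cells, by sequencing of the target site and by Western blot. Gsk3b, which encodes the kinase GSK3β, had gene totals of 35.6, 53.8 and 56.5 FPKM in Ctrl and 36.9, 37.0 and 33.6 FPKM in Gsk3sKO. The groups overlapped through Ctrl replicate 1, and the log2 fold change of -0.40 was not called (SE 0.19, limma unadjusted p = 0.0648, adjusted p = 0.773). Without that library it fell by 0.61 (unadjusted p = 0.00265). Its main transcript, Gsk3b-201, was at 33.5 to 36.2 FPKM in Ctrl and 21.2 to 24.8 FPKM in Gsk3sKO, without overlap, and fell by 0.61 (SE 0.14, limma, unadjusted p = 0.00448, adjusted p = 0.619). Across 8 lists of cell type markers, the summed FPKM overlapped between the groups for every list and no marker was at 0 in all libraries. The groups did not overlap, in either direction, for 12% of all 12874 gene totals tested. Of the 39 single markers, 5 were lower in every Gsk3sKO library than in any Ctrl library and none was higher in this way. They were Mog (2.67 to 3.996 FPKM in Ctrl, 0 to 1.81 FPKM in Gsk3sKO) and Mag (4.44 to 6.67 and 2.502 to 3.69 FPKM) of oligodendrocytes, C1qa of microglia (4.30 to 5.73 and 1.51 to 3.56 FPKM), and Tbr1 (26.1 to 28.2 and 17.6 to 22.7 FPKM) and Slc17a7 (262 to 273 and 192 to 261 FPKM) of glutamatergic neurons. The 4 markers of D2 neurons (Drd2, Penk, Adora2a, Gpr6) summed to 98.5 to 318 FPKM in Ctrl and 146 to 293 FPKM in Gsk3sKO. Most of this sum was Penk, at 96.5 to 295 FPKM in Ctrl and 136 to 281 FPKM in Gsk3sKO. Drd2 itself was low and uneven, at 1.58 to 14.1 FPKM in Ctrl and 5.96 to 8.32 FPKM in Gsk3sKO. The 5 markers of glutamatergic neurons summed to 881 to 999 FPKM in Ctrl and 840 to 1046 FPKM in Gsk3sKO. Oligodendrocyte markers summed to 108 to 169 and 123 to 155 FPKM, astrocyte markers to 55.1 to 67.0 and 49.8 to 70.9 FPKM. The part of other cells in these results was not tested, and fewer cells of a type cannot be told apart from less RNA per cell.

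All 10 genes were well above the filter in every library, and none of their gene totals was called in limma, against 6.56% of 12874 gene totals. Their adjusted p-values ran from 0.821 to 0.995. Their median log2 fold change was 0.01, beside -0.06 over all gene totals, and 6 of 10 lay above 0. By level, Dnm1 stood first with a mean of 607 FPKM over the 6 libraries (range 529 to 665), above every other member in every library. Clta (281 FPKM) and Cltb (244 FPKM) followed, with overlapping ranges, though Clta was above Cltb in 6 of 6 libraries, and neither range reached that of Cltc. Cltc (153 FPKM), Amph (124 FPKM), Synj1 (103 FPKM), Dnajc6 (90.1 FPKM), Snap91 (78.5 FPKM) and Ap2a1 (61.7 FPKM) formed a series in which each range overlapped the next. Picalm was lowest, at 38.4 FPKM, with no overlap with Ap2a1.

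**Figure D2:**
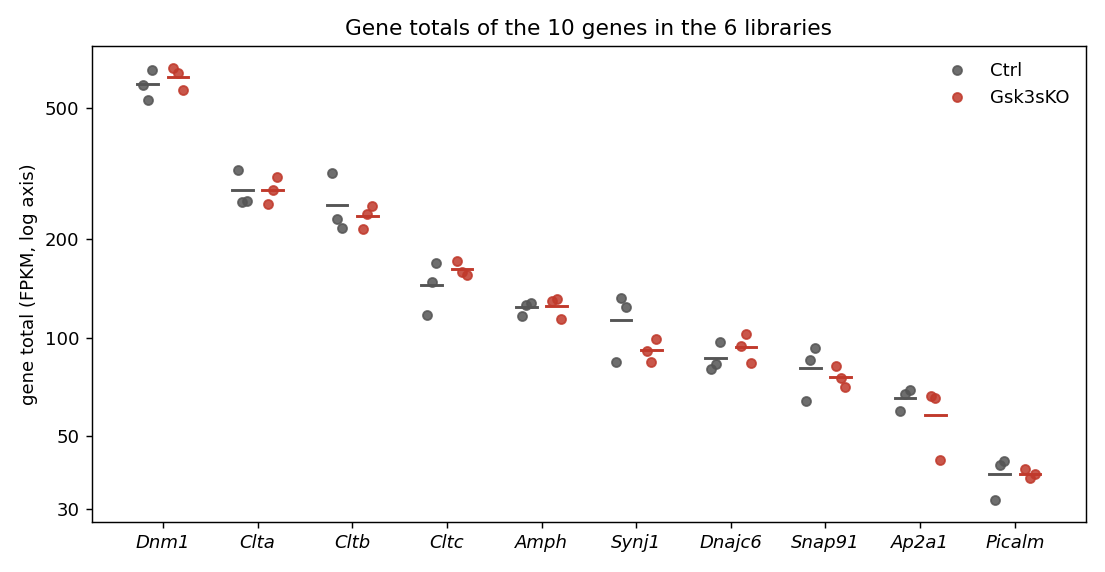
Points give the gene total in FPKM (log y axis) of each gene (x axis) in 3 Ctrl and 3 Gsk3sKO libraries, and short lines give group means. The order runs from Dnm1 at 607 FPKM to Picalm at 38.4 FPKM, and Ctrl and Gsk3sKO points overlap for all 10 genes.

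Among the coat proteins, clathrin heavy chain (Cltc) was at 118, 148 and 169 FPKM in Ctrl and 171, 159 and 155 FPKM in Gsk3sKO. Its log2 fold change was 0.17 with a 95% interval of -0.19 to 0.53. Clta was at 325, 258 and 260 FPKM in Ctrl and 255, 282 and 308 FPKM in Gsk3sKO, a log2 fold change of 0.01 (95% interval -0.33 to 0.35). Cltb was at 318, 229 and 216 FPKM in Ctrl and 215, 237 and 251 FPKM in Gsk3sKO, a log2 fold change of -0.10 (95% interval -0.49 to 0.30). In Ctrl replicate 1 the heavy chain was lowest and both light chains highest of the 6 libraries. The heavy chain came mostly from Cltc-202, which codes for 1675 amino acids.

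The light chains differed in their splicing. Both genes have a 54-base coding exon that is known to be used mainly in neurons, and Clta has a further one of 36 bases. The 54-base exons are shown because they match at 37 of 54 bases (68.5%) yet were used to very different degrees. Capitals mark the 17 bases that differ. The Clta exon lies at chr4:44030215-44030268 on the plus strand and the Cltb exon at chr13:54597026-54597079 on the minus strand.
Clta 54-base exon: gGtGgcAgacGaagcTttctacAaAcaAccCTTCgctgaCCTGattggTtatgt
Cltb 54-base exon: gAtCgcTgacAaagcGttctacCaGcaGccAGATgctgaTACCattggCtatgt
Transcripts with the exon made up 90.8% to 94.5% of the Cltb signal that could be assigned, and 25.2% to 38.6% of that of Clta. These ranges were far apart in all 6 libraries. In Cltb the share was 91.8% ± 1.04 in Ctrl and 93.8% ± 1.07 in Gsk3sKO (SD, n = 3), and in Clta it was 28.5% ± 4.17 and 34.7% ± 3.55. The 36-base exon of Clta, at chr4:44031400-44031435, was in 27.4% ± 4.5 of the signal in Ctrl and 33.3% ± 0.951 in Gsk3sKO. All 3 exons overlapped between groups. Clta-201, which has neither insert and codes for 216 amino acids, was the most abundant Clta transcript, at 176, 116 and 143 FPKM in Ctrl and 132, 147 and 176 FPKM in Gsk3sKO. Clta-205, which has both and codes for 248, was at 78.7, 52.0 and 56.0 FPKM in Ctrl and 74.0, 88.7 and 92.5 FPKM in Gsk3sKO, with a log2 fold change of 0.46 that missed the threshold (SE 0.20, limma unadjusted p = 0.0536). Cltb-201, the transcript with the insert, was at 199 to 291 FPKM in the 6 libraries.

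Of the adaptors, Ap2a1 was at 59.9, 67.2 and 69.0 FPKM in Ctrl and 66.2, 65.6 and 42.5 FPKM in Gsk3sKO. Replicate 3 of Gsk3sKO stood apart, and the log2 fold change of -0.19 (95% interval -0.63 to 0.24) was 0.01 without it. In that library the main transcript, Ap2a1-202, was listed at 0, against 42.8 to 56.6 FPKM in the other 5, and Ap2a1-201 was at 37.4 FPKM, against 4.21 to 11.3 FPKM. These transcripts differ, among other places, in a 66-base coding exon at chr7:44903462-44903527. It was in 17.9% to 20.3% of the signal in Ctrl and in 12.01% and 12.3% in Gsk3sKO replicates 1 and 2, and in 100% in replicate 3. A short retained-intron transcript, Ap2a1-205 (ENSMUST00000207554), was called lower at 4.58, 3.84 and 1.27 FPKM in Ctrl and 0.923, 0.247 and 0.141 FPKM in Gsk3sKO (limma log2 fold change -1.49, SE 0.51, unadjusted p = 0.0244, adjusted p = 0.842). This call was lost without Ctrl replicate 1 or 2 or Gsk3sKO replicate 2 or 3 (unadjusted p from 0.0622 to 0.0688).

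Snap91 was at 64.3, 85.6 and 93.2 FPKM in Ctrl and 81.8, 75.6 and 70.8 FPKM in Gsk3sKO, with a log2 fold change of -0.08 (95% interval -0.45 to 0.30). Its most abundant listed transcript by mean was not a coding one. Snap91-209, annotated as a retained intron, was at 34.01, 49.1 and 47.2 FPKM in Ctrl and 46.4, 42.1 and 30.1 FPKM in Gsk3sKO. Of the coding transcripts, Snap91-202 (901 codons) ranged from 2.79 to 41.0 FPKM and Snap91-204 (838 codons) from 1.07 to 30.7 FPKM, and both overlapped between groups. The library lowest in Snap91-202, Gsk3sKO replicate 3, was highest in Snap91-204, and Ctrl replicate 3 was the reverse. Picalm was at 32.0, 40.8 and 42.2 FPKM in Ctrl and 39.7, 37.3 and 38.4 FPKM in Gsk3sKO, a log2 fold change of 0.01 (95% interval -0.33 to 0.36). Its main transcript, Picalm-212, was at 18.2, 21.4 and 27.6 FPKM in Ctrl and 25.2, 21.5 and 12.3 FPKM in Gsk3sKO. A 150-base coding exon of Picalm was in 13.5% to 18.2% of the signal in 5 libraries and in 43.3% in Gsk3sKO replicate 3.

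Dynamin 1, the fission GTPase, had gene totals of 590, 529 and 653 FPKM in Ctrl and 665, 638 and 566 FPKM in Gsk3sKO, with a log2 fold change of 0.08 (95% interval -0.26 to 0.42). Dnm1 has a pair of alternative coding exons of 139 bases each in the part that codes for the middle of the protein. They are shown because a transcript uses 1 or the other and their balance divides the Dnm1 signal. They match at 100 of 139 bases (71.9%), and capitals mark the 39 that differ. The upstream exon lies at chr2:32334682-32334820 and the downstream exon at chr2:32333066-32333204, both on the minus strand.
Dnm1 upstream exon: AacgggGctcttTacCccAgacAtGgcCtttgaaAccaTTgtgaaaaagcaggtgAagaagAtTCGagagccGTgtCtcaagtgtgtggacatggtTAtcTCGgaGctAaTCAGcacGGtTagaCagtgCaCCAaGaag
Dnm1 downstream exon: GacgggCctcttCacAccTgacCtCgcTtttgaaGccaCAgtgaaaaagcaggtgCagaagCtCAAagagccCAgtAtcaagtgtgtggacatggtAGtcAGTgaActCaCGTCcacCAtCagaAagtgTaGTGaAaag
The downstream exon was in 61.6%, 67.2% and 74.7% of the signal in Ctrl and in 74.2%, 75.2% and 74.6% in Gsk3sKO. The upstream exon was in 37.2%, 32.2% and 25.0% in Ctrl and 25.2%, 23.8% and 25.2% in Gsk3sKO. Ctrl replicate 3 lay among the Gsk3sKO libraries for both, so the groups overlapped. The most abundant transcript, Dnm1-214 (864 codons, downstream exon), was at 240, 236 and 329 FPKM in Ctrl and 327, 319 and 322 FPKM in Gsk3sKO, and its log2 fold change of 0.28 was not called (SE 0.16, limma unadjusted p = 0.118). Without Ctrl replicate 3 it was 0.44 (unadjusted p = 0.0102). Dnm1-204 (ENSMUST00000113352), which codes for 851 amino acids and uses the upstream exon, was called higher. It stood at 24.5, 43.0 and 53.4 FPKM in Ctrl and 63.8, 72.2 and 63.7 FPKM in Gsk3sKO, without overlap, and rose by 0.78 (SE 0.29, limma unadjusted p = 0.0334, adjusted p = 0.842). The value was 0.46 without Ctrl replicate 1 and 0.72 to 0.86 without Ctrl replicate 2 or any 1 Gsk3sKO library, where the call was lost (unadjusted p from 0.0556 to 0.0931). It was also lost in the linear model without moderation (unadjusted p = 0.0789). Dnm1-205, which codes for 864 and also uses the upstream exon, went the other way, at 102, 48.3 and 29.7 FPKM in Ctrl and 28.5, 14.9 and 29.5 FPKM in Gsk3sKO. Its log2 fold change of -1.15 missed the threshold (SE 0.49, limma unadjusted p = 0.0547).

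**Figure D3:**
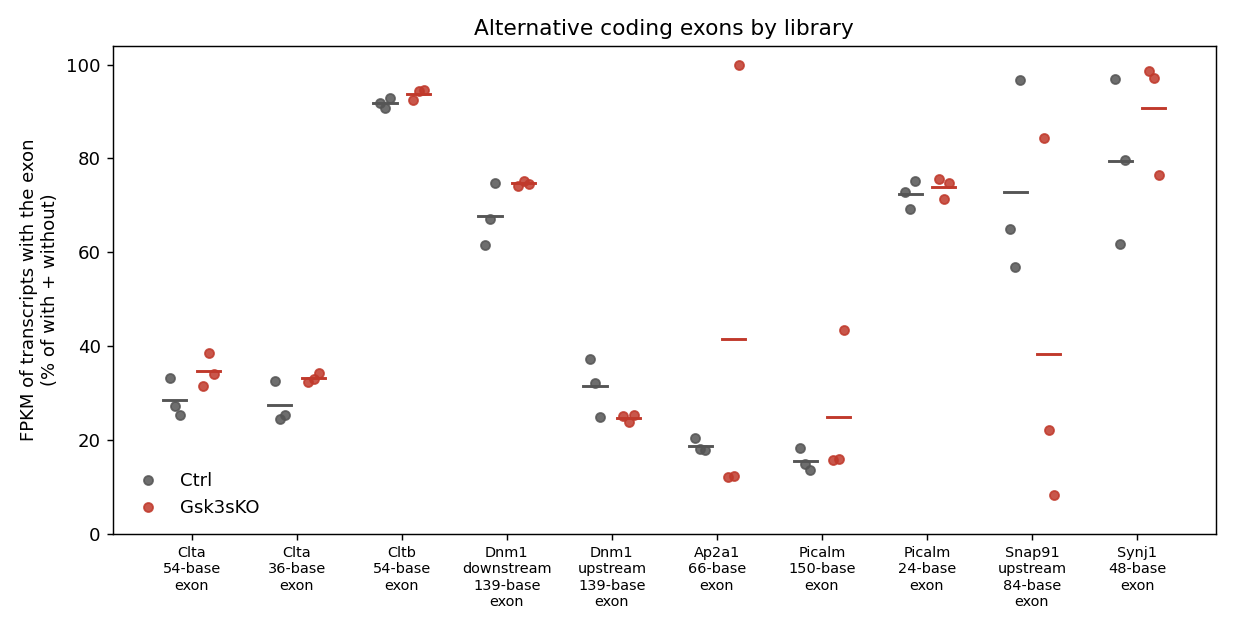
Points give, for each library, the percentage of FPKM in transcripts that hold the exon named on the x axis, out of those with and without it, and short lines give group means. The Cltb exon is at 90.8% to 94.5% and the Clta exon of the same length at 25.2% to 38.6%, and Gsk3sKO replicate 3 stands apart for the Ap2a1 and Picalm 150-base exons.

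Amphiphysin (Amph) was among the steadiest of the genes, at 117, 126 and 128 FPKM in Ctrl and 129, 131 and 114 FPKM in Gsk3sKO. Its log2 fold change was 0.01 with a 95% interval of -0.27 to 0.30. The signal was divided between Amph-204 (690 codons), at 74.2, 109 and 107 FPKM in Ctrl and 122, 116 and 101 FPKM in Gsk3sKO, and Amph-201 (ENSMUST00000003345, 686 codons). The latter was at 41.4, 14.5 and 18.9 FPKM in Ctrl and 3.61, 14.7 and 5.93 FPKM in Gsk3sKO, and fell by 1.57 although the groups overlapped (SE 0.56, limma unadjusted p = 0.0305, adjusted p = 0.842). That call was lost without Ctrl replicate 1 or 3 or Gsk3sKO replicate 1 or 3 (unadjusted p from 0.0589 to 0.1005) and in the linear model (unadjusted p = 0.0823).

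Synaptojanin 1 (Synj1) had the largest fitted difference of the 10 totals, and it was not called. It was at 84.1, 132 and 124 FPKM in Ctrl and 91.2, 84.3 and 99.1 FPKM in Gsk3sKO, with a log2 fold change of -0.28 (95% interval -0.71 to 0.14, limma unadjusted p = 0.163, adjusted p = 0.821). Ctrl replicate 1 was the lowest of the 6 libraries, and without it the value fell by 0.49 and passed the threshold (unadjusted p = 0.00828). The longest form, Synj1-203 (1607 codons), was the most abundant by mean and in 5 of 6 libraries, at 65.8, 45.0 and 34.6 FPKM in Ctrl and 79.7, 69.9 and 44.7 FPKM in Gsk3sKO. Synj1-202, a form with 1323 codons, was at 41.3 FPKM in Ctrl replicate 3 and at 1.82 to 3.06 FPKM in the other 5 libraries.

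In all, 56 of the 92 transcripts reached a mean of 1 FPKM and were tested, and the other 36 were not. Of the 56, 6 were called, 3 in each direction: higher for Dnajc6-204, Dnajc6-203 and Dnm1-204, and lower for Dnajc6-205, Ap2a1-205 and Amph-201. This is 10.7%, beside 5.56% of all 21584 transcripts tested. Of the called ones, Dnajc6-203 reached the minimum mean only through Gsk3sKO libraries and Ap2a1-205 only through Ctrl libraries. These calls, and that of the Dnajc6-203 share below, therefore add no separate support. The groups did not overlap for 6 of the 56 (10.7%), beside 11.2% of all transcripts tested, and 5 of these were among the called ones. As shares of their gene, 3 of 56 were called, all of Dnajc6, beside 4.82% of 13933 shares: Dnajc6-204 and Dnajc6-203 higher and Dnajc6-205 lower. No transcript or share of these genes passed adjustment. Outside Dnajc6, none of 24 tested start groups was without overlap, beside 11.7% of all start groups tested. None of the 10 gene totals was without overlap either, beside 12% of all gene totals tested.

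**Figure D4:**
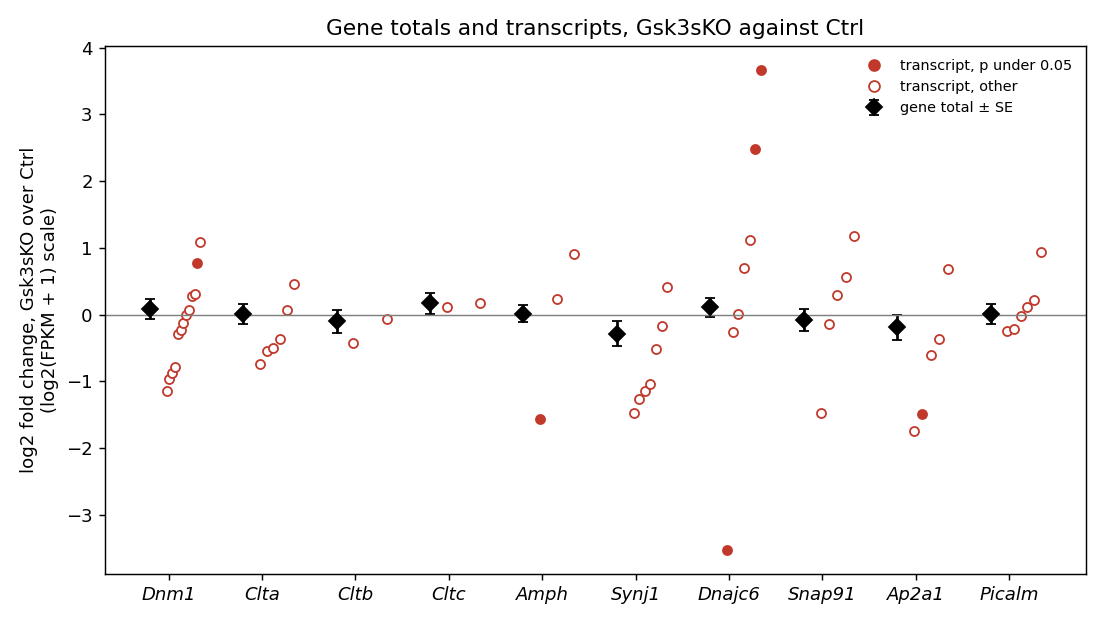
Diamonds with bars give the log2 fold change of the gene total with its SE, and circles that of each tested transcript (y axis, Gsk3sKO over Ctrl on the log2(FPKM + 1) scale), by gene (x axis). Gene totals lie between -0.28 and 0.17, and the 3 filled circles farthest from 0 are Dnajc6 transcripts, at -3.52, 2.48 and 3.66.

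The 42 other genes of the same pathway were counted from a list that was chosen with earlier results of these data known. 2 gene totals were called (4.76%, beside 6.56% of all), 1 in each direction, and neither passed adjustment. Ap2s1, the sigma subunit of AP-2, was at 89.4, 60.1 and 43.8 FPKM in Ctrl and 44.6, 41.7 and 34.2 FPKM in Gsk3sKO. The groups overlapped, and it fell by 0.62 on the log2 scale (SE 0.25, limma unadjusted p = 0.0362, adjusted p = 0.747). Its transcript Ap2s1-201 was also called lower, at 42.6 to 89.4 FPKM in Ctrl and 27.6 to 41.7 FPKM in Gsk3sKO. Ppp3cb, a catalytic subunit of calcineurin, was at 50.9, 42.9 and 91.4 FPKM in Ctrl and 98.8, 99.8 and 102 FPKM in Gsk3sKO. Every Gsk3sKO library was higher, and it rose by 0.76 (SE 0.25, limma unadjusted p = 0.0157, adjusted p = 0.688). Ctrl replicate 3 lay much nearer to Gsk3sKO than to the other Ctrl libraries. Neither total was called without Ctrl replicate 1 or without Ctrl replicate 2, and the count of called pathway totals was 1 without Gsk3sKO replicate 3. By role, none of 9 genes of pit initiation, 6 of cargo and coat, 8 of membrane curvature, 2 of fission, 4 of uncoating or 4 lipid and coat kinases was called by its total. Hspa8, the chaperone that auxilin recruits, was at 1083, 1066 and 1145 FPKM in Ctrl and 1178, 1141 and 1192 FPKM in Gsk3sKO, with a log2 fold change of 0.09 (SE 0.14, limma unadjusted p = 0.535). Gak, the broadly expressed relative of auxilin, was at 28.7, 30.2 and 37.5 FPKM in Ctrl and 31.3, 34.1 and 30.4 FPKM in Gsk3sKO.

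**Figure D5:**
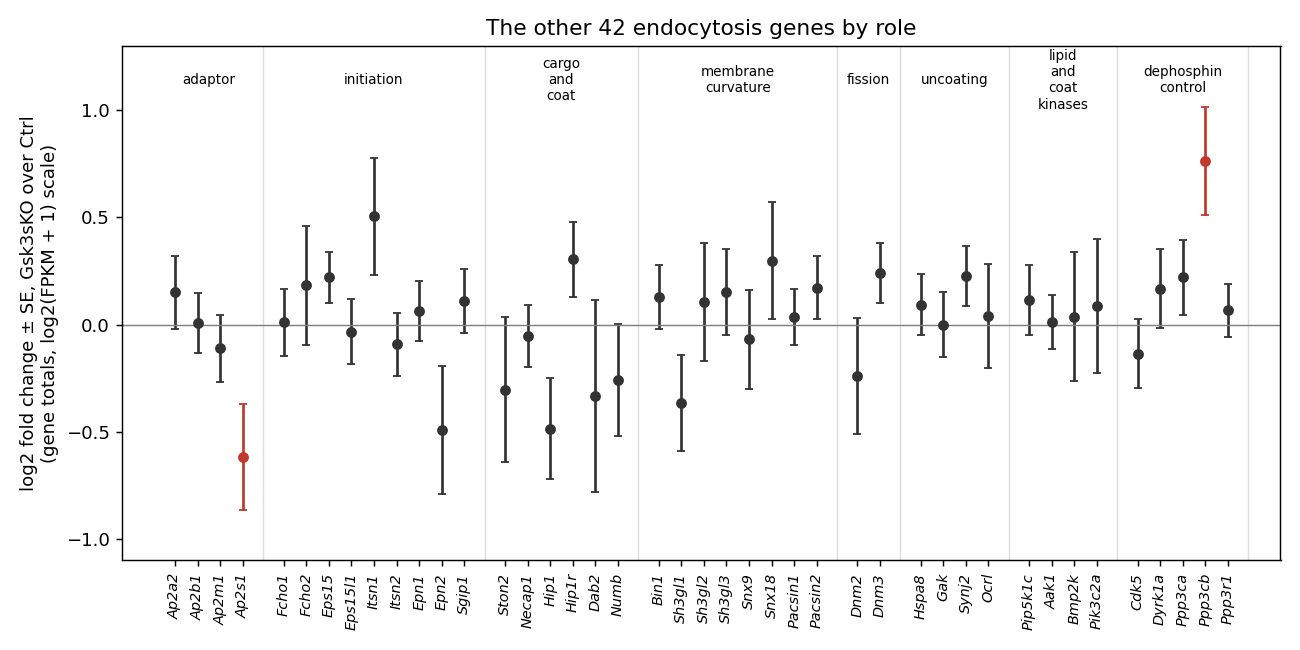
Points give the log2 fold change of the gene total with its SE (y axis, Gsk3sKO over Ctrl) for the 42 other endocytosis genes, grouped by role (x axis). The 2 red points are the called genes, Ap2s1 at -0.62 and Ppp3cb at 0.76.

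8 transcripts of these genes were called, of 115 tested (6.96%), 6 lower and 2 higher. Over all 21584 transcripts tested, 5.56% were called, and 810 of those 1200 were lower. Epsin 1 (Epn1), which binds lipid and clathrin early in pit formation, had, like Dnajc6, a total that was not called and starts that were called in opposite directions. Its gene total was at 98.9, 88.3 and 96.7 FPKM in Ctrl and 98.7, 113 and 86.4 FPKM in Gsk3sKO. Transcripts of its upstream start, with first exons within chr7:5080235-5080638, summed to 68.5, 63.5 and 63.0 FPKM in Ctrl and 47.3, 33.5 and 34.8 FPKM in Gsk3sKO, and fell by 0.76 (SE 0.16, limma unadjusted p = 0.00266, adjusted p = 0.479). Those of the next start, within chr7:5083665-5083982, summed to 26.4, 23.3 and 33.6 FPKM in Ctrl and 51.1, 77.9 and 51.6 FPKM in Gsk3sKO, and rose by 1.07 (SE 0.22, limma unadjusted p = 0.00212, adjusted p = 0.468). Neither pair of groups overlapped. The main transcripts of these starts were called the same way: Epn1-201 was at 39.4 to 42.3 FPKM in Ctrl, against 25.3 FPKM in Gsk3sKO replicate 1, and was listed at 0 in replicates 2 and 3. Epn1-207 was at 22.5 to 32.3 FPKM in Ctrl and 49.8 to 74.7 FPKM in Gsk3sKO. Among the 25 member and pathway genes with at least 2 tested starts, 3 had starts called in opposite directions. The share over all 2543 such genes was 2.52%. After Dnajc6 and Epn1, the remaining 1 was Synj2, the relative of synaptojanin 1. Its start 2 was at 8.24, 0.213 and 7.69 FPKM in Ctrl and 18.9, 17.1 and 18.8 FPKM in Gsk3sKO, and its start 1 at 7.53, 11.1 and 6.03 FPKM in Ctrl and 7.70, 0.0266 and 0.537 FPKM in Gsk3sKO. Epn1, Synj2 and their starts were picked out after the values were seen.

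The other called transcripts were mostly minor ones. Itsn1-202, of the scaffold intersectin 1, was higher, at 0.502 to 2.08 FPKM in Ctrl and 3.30 to 27.6 FPKM in Gsk3sKO. Pacsin1-201, of the F-BAR protein syndapin 1, was at 82.7, 84.1 and 82.5 FPKM in Ctrl and 66.6, 69.2 and 63.6 FPKM in Gsk3sKO, and fell by 0.32 (SE 0.11, limma unadjusted p = 0.0251, adjusted p = 0.842). Epn2-213 was at 3.38 to 7.32 FPKM in Ctrl and 1.11 to 2.74 FPKM in Gsk3sKO, Gak-211, annotated for nonsense-mediated decay, at 6.76 to 10.4 and 3.38 to 6.19 FPKM, and Ocrl-202, of an inositol phosphatase gene, at 1.85 to 2.99 and 0 to 0.718 FPKM. Ocrl-202 reached the minimum mean of 1 FPKM only through Ctrl libraries. None of the 8 passed adjustment.

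Over the 6 libraries, the gene totals whose log2(FPKM + 1) followed that of Dnajc6 most closely, among 8467 with a mean of at least 5 FPKM, were Tox (r = 0.994), Wars (r = 0.994) and Ndrg3 (r = 0.989). Tox ran from 10.8 FPKM in Ctrl replicate 1 to 15.4 FPKM in Gsk3sKO replicate 2, the same libraries that were lowest and highest in Dnajc6. These values describe 6 points that share library composition, and are the top of a large number of comparisons.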

How the data were processed

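Reads from HA-immunoprecipitated ribosomes (stranded total RNA libraries) were aligned and quantified by the authors to GRCm38. Per the labels they used HISAT2 2.1.0, SAMtools 1.9 and StringTie 1.3.4d, and deposited 1 table of FPKM values per transcript and library. No source used here gives their settings or annotation. The table also holds the authors' own fold change, p and q columns, which were not used. Counts were not given. The FPKM of a library summed to 608528, 550660 and 414548 in Ctrl and to 422109, 398586 and 385795 in Gsk3sKO. Ctrl replicates 1 and 2 thus had the highest sums, and the cause was not tested. The spacing of low values did not resolve whole reads (11.4% to 19.8% of them within 0.01 of a whole number in any library), so no depth was taken from it, the depth is treated as unknown, and low values may rest on few reads. StringTie divides reads among overlapping transcripts, so values of near-identical transcripts depend on that division.

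FPKM were summed by gene. Features with a mean of at least 1 FPKM over the 6 libraries were fitted as log2(FPKM + 1), Gsk3sKO against Ctrl, with limma 3.58.1 (lmFit, eBayes with trend) in R 4.3.3. Calls are at an unadjusted p under 0.05, with Benjamini-Hochberg adjusted values over all features tested beside them. Shares were fitted as log2((FPKM + 1)/(gene total + 1)). Transcript structures, exons and coding sequence came from GENCODE M21, which held 114237 of the listed transcripts, and a start group is a set of transcripts of 1 gene with overlapping first exons. The fits were also tested on simulated data, which did not include the division of reads among overlapping transcripts. The genes and lists were chosen with earlier results of these data known. The text names all 10 genes, their most abundant transcript, every transcript of theirs that was called, pathway genes with a called total or transcript, Gsk3b and the 3 totals most like that of Dnajc6. Start groups and alternative exons were chosen after values were seen.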

Additional observations from a re-analysis of the deposited data

How the results depend on the processing

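The counts of calls, the gene totals of the 10 genes and Gsk3b, the most abundant and the called transcripts of the 10 genes and the 3 Dnajc6 starts were refitted under 12 alternatives: a pseudocount of 0.1, a minimum mean of 5 FPKM, no filter, median-ratio rescaling, a linear model without moderation, replicate number as a block, and each of the 6 libraries left out. Exon shares, coding-length sums and the starts and transcripts of single pathway genes were not refitted. No gene total of the 10 was called except Synj1 without Ctrl replicate 1, so their count of calls was 0 to 1 over the left-out libraries. The count of called transcripts was 6, and 2 in the linear model without moderation and 2 to 8 over the left-out libraries, lowest without Ctrl replicate 2. That of called shares was 3, and 5 without a filter and 2 to 5 over the left-out libraries, highest without Gsk3sKO replicate 2. That of called pathway totals was 2, and 1 with rescaling, 1 in the linear model and 0 to 3 over the left-out libraries, with 0 without Ctrl replicate 1 or 2. That of called start groups was 3, and 2 to 4 over the left-out libraries. The cause was not tested. Directions of some uncalled values turned when a library was left out. The log2 fold change ranged from -0.058 to 0.12 for Clta, -0.20 to 0.07 for Cltb, -0.30 to 0.014 for Ap2a1, -0.23 to 0.033 for Snap91, -0.11 to 0.086 for Picalm and -0.027 to 0.077 for Amph totals. It ranged from -0.074 to 0.22 for Clta-201 (ENSMUST00000107845), -0.17 to 0.10 for Cltb-201 (ENSMUST00000049575), -2.74 to 0.19 for Ap2a1-202 (ENSMUST00000107857, -1.75 with all libraries), -0.30 to 0.044 for Snap91-209 (ENSMUST00000190388) and -0.42 to 0.074 for Picalm-212 (ENSMUST00000208730). Of all called gene totals, 669 of 844 were lower, and with rescaling 528 of 804.

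The replicate numbers did not pair the libraries: deviations from the group mean of libraries with the same number had correlations of -0.03, -0.01 and -0.08. With the replicate block, Dnajc6 start 2 rose by 1.51 (limma, unadjusted p = 0.000798), and among the named transcripts the Amph-201 call was lost (unadjusted p = 0.073).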
